A study of Mus musculus with 10 samples.

Results

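Il10 and 6 genes around it were followed in spleen CD4+ T cells of NOD and B10 mice. The 7 genes are the cytokines Il10, Il24 and Tgfb1, the receptor chains Il10ra, Il10rb and Il27ra, and the transcription factor Prdm1. They were chosen by symbol from 19938 genes that had a probe set assigned to 1 symbol, with the brightest probe set standing for a gene that had several. All 7 were found, each by a single probe set, so no choice between probe sets was needed for them.

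CD4+ splenocytes were isolated on magnetic beads from female mice aged 8 weeks, and their RNA was hybridised to 10 Affymetrix mouse gene arrays, 1 array for each sample. The genotype of the NOD mice was given as NODk, and B10 mice, with the genotype given as B10Br, served as the other strain. The 4 groups were NOD T1 (2 arrays), NOD T0 (3 arrays), B10 T1 (2 arrays) and B10 T0 (3 arrays). T1 cells received the phorbol ester PMA at 10 ng/ml with the calcium ionophore ionomycin at 1 uM for 4 hours, which activates T cells past their antigen receptor, and T0 cells were unstimulated. The protocol can also be read as culture of the T0 cells over the same 4 hours, so their handling is unclear. A first T1 replicate of either strain was not analysed here. The labels call the samples biological replicates without naming the animals or saying whether spleens were pooled, so p-values measure the spread between these arrays.

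All 7 CD4 T cell marker genes lay above their own array's median on all 10 arrays, and 6 of them above its 75th percentile. Also above the median on all 10 arrays were 7 of 7 regulatory T cell, 7 of 8 B cell and 5 of 6 plasma cell markers. The same held for 5 of 9 monocyte and macrophage, 2 of 3 CD8 T cell and 2 of 4 erythroid markers. It held for 2 of 7 NK cell, 1 of 7 dendritic cell, 1 of 9 neutrophil and 1 of 4 platelet markers. These counts do not show how pure the CD4+ cells were. Array medians lay between 6.18 and 6.23, and pairs of arrays correlated at r = 0.985 to 0.993 within groups and 0.943 to 0.984 between groups. Values are log2 intensities, on which a difference of 1 is a doubling. A level of one gene cannot be set against the level of another, because probes differ in brightness. In such bulk samples fewer cells of a type and less RNA per cell cannot be told apart. Calls are limma tests with Benjamini-Hochberg adjusted p below 0.05 over all 19938 genes.

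Interleukin 10 is a secreted cytokine that restrains antigen-presenting cells and inflammatory T cells. It binds a receptor made of Il10ra, the ligand-binding chain, and Il10rb, a chain shared with receptors for interleukin 22 and type III interferons, and signals through the kinases Jak1 and Tyk2 to Stat3. In CD4 T cells, interleukin 27 acting through Il27ra and Blimp-1, the product of Prdm1, are both known to promote Il10 transcription. Transforming growth factor beta 1, the product of Tgfb1, is the other main suppressive cytokine of CD4 T cells and is stored in a latent form. Il24, a relative of Il10, is its neighbour on chromosome 1.

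The upstream sequences were available for Prdm1 and Tgfb1, 2 of the 7 genes, and are shown because Prdm1 changed with stimulation and Tgfb1 did not pass the test. Both come from RefSeq (GRCm38.p6), run over the 250 bases before the start of the gene and are written 5′ to 3′ on the gene's strand. Prdm1 lies on chromosome 10, at chr10:44458749-44458998 on the minus strand, and Tgfb1 on chromosome 7, at chr7:25686752-25687001 on the plus strand. Capitals mark a match to TGANTCA, a loosened form, with any middle base, of the motif TGA(G/C)TCA of AP-1, a factor that PMA activates. The match in the Prdm1 sequence began 48 bases before the start, and the Tgfb1 sequence had none. It reads TGAATCA, with A in the middle, so it meets the loosened form only.
Prdm1: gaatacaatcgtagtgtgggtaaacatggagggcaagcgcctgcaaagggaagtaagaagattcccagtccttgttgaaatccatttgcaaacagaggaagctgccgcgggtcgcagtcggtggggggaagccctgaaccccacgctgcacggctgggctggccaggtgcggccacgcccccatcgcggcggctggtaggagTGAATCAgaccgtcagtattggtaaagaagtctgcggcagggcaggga
Tgfb1: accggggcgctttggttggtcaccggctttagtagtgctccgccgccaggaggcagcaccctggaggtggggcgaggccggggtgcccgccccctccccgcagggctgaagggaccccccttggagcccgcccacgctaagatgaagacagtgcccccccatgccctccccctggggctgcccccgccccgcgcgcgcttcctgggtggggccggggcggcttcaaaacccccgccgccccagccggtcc
TGANTCA, searched on both strands, occurred in 6.75% of the 32851 upstream sequences of this length in the RefSeq table. The short NFAT core GGAAA, also searched on both strands, was in 55.6% of them and in neither of these. A match describes the letters only, and binding was not measured.

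Il10 was the gene of the set that changed most with stimulation in both strains. NOD T1 arrays read 10.17 and 10.72 for Il10, and NOD T0 arrays read 6.18, 6.14 and 6.68. B10 T1 arrays read 11.24 and 9.70, and B10 T0 arrays read 5.61, 7.01 and 5.64. Every T1 array lay far above every T0 array, and at either state the NOD arrays lay within the range of the B10 arrays. At T0, 2 of 3 arrays of each strain were below their own array's median, so the T0 level was in the dim part of the range, where RMA values understate a change.

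Il10 averaged 10.45 ± 0.39 in NOD T1 cells (SD, n = 2), against 6.33 ± 0.30 in NOD T0 cells (n = 3). The log2 difference was 4.11 ± 0.44 (SE), a 17.3-fold higher signal with a 95% interval of 8.88 to 33.7 (limma adjusted p = 9.14e-06). The mean was 10.47 ± 1.09 in B10 T1 cells (n = 2), against 6.09 ± 0.80 in B10 T0 cells (n = 3). There the difference was 4.39 ± 0.44, a 20.9-fold higher signal with an interval of 10.7 to 40.8 (limma adjusted p = 5.12e-06). Among all genes tested these changes ranked 7 from the highest in NOD cells and 6 from the highest in B10 cells.

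Among the 7 genes, 5 passed the test for stimulation in NOD cells, 2 higher and 3 lower, and 35.5% of all genes did so in either direction. By direction 16.1% of all genes were higher and 19.5% lower. The same split of 2 higher and 3 lower was found in B10 cells, where 31.8% of all genes passed, 13.7% higher and 18.1% lower. Of the genes brighter than the median gene, 6039 passed in NOD cells (2366 higher, 3673 lower) and 5931 in B10 cells (2490 and 3441). All of the 7 genes but Il24 are among these brighter genes, where the share called was larger than over all genes. The median change of the 7 genes was 0.02 in NOD cells and 0.12 in B10 cells, beside 0.08 and 0.03 over all genes. With each array scaled to its 75th percentile instead, the median of all genes moved up by 0.13 in NOD cells and the number called there went to 5393 higher and 3145 lower, against 3201 and 3884, while the 7 genes kept their calls.

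**Figure D1:**
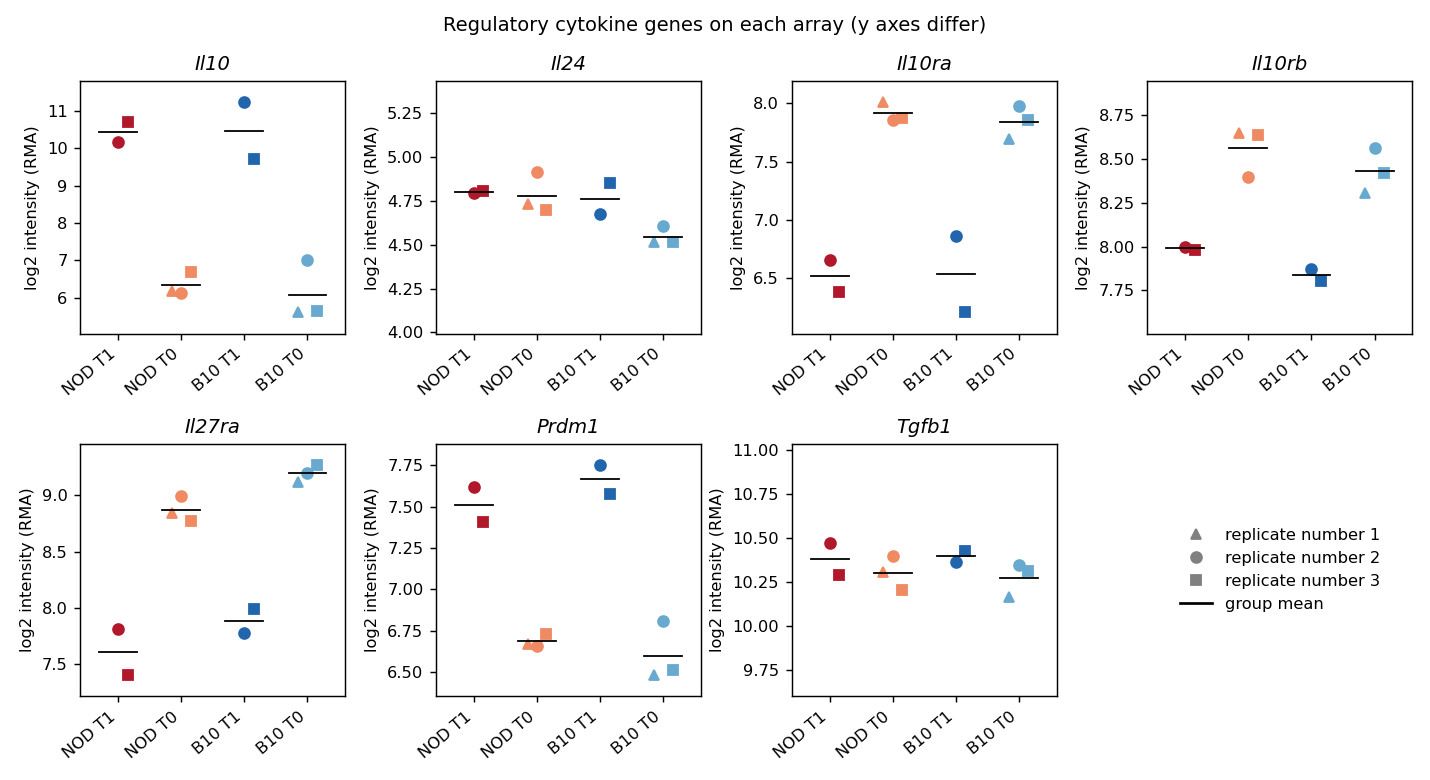
Log2 intensity (RMA, y axis of each panel) of the 7 genes on each of the 10 arrays, grouped along the x axis as NOD T1, NOD T0, B10 T1 and B10 T0, with points for arrays, shaped by replicate number, and lines for group means. The y axes differ between panels. Il10 stands at 9.70 to 11.24 on T1 arrays and at 5.61 to 7.01 on T0 arrays, and both B10 groups spread wider than the NOD groups.

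Il10 was also among the genes that varied most between replicate arrays. Its residual SD was 0.68 on the log2 scale, larger than that of 99.8% of genes, beside a median of 0.13 over all genes. The limma fit draws the spread of each gene toward that of other genes. The SE, intervals and p-values given for Il10 therefore rest on a smaller spread than its own. With a variance trend and robust fitting, the limma adjusted p of the Il10 change was 0.00209 in NOD cells and 0.0015 in B10 cells. In B10 cells the arrays of replicate 2 were the high ones at both states, 1.54 above replicate 3 at T1 and 1.37 above it at T0. In NOD cells replicate 2 was the lower one, by 0.55 at T1 and by 0.54 at T0. Of 11 lists of cell type markers, 3 differed between these replicates with the sign of Il10 in all 4 groups. For the 7 regulatory T cell markers the mean log2 level of replicate 2 minus replicate 3 was -0.13 at T1 and -0.18 at T0 in NOD cells, and 0.55 at T1 and 0.50 at T0 in B10 cells. For the 6 plasma cell markers it was -0.17 and -0.10 in NOD cells and 0.21 and 0.26 in B10 cells, and for the 8 B cell markers it was -0.02 and -0.34 in NOD cells and 0.05 and 0.26 in B10 cells. The 4 erythroid markers differed most between these arrays, by -0.44 at T1 and -0.57 at T0 in NOD cells, and in B10 cells the opposite way to Il10, by -1.55 and -1.81. Ctla4, an inhibitory receptor on the regulatory T cell list, read 12.49 and 11.41 on the B10 T1 arrays of replicates 2 and 3. The markers on that list did not all follow Il10. Foxp3 on replicates 2 and 3 read 7.95 and 7.89 at NOD T1 and 7.70 and 7.69 at NOD T0, slightly the opposite way to Il10. It read 8.18 and 7.84 at B10 T1, the same way as Il10. The part of these cells in the Il10 values was not tested.

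The size of the Il10 change in B10 cells depended on which array was used, and its call did not. Without replicate 2 of B10 T1 the log2 change was 3.62, without replicate 3 of B10 T1 it was 5.16, and without replicate 2 of B10 T0 it was 4.85. Leaving out both B10 arrays of replicate 2, a choice made after seeing the data, gave 4.08, and leaving out both of replicate 3 gave 4.93. In NOD cells the change lay between 3.84 and 4.39 with each array left out in turn.

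Prdm1 encodes Blimp-1, a transcriptional repressor that marks effector T cells and plasma cells. Prdm1 read 7.62 and 7.41 on NOD T1 arrays, against 6.67, 6.66 and 6.73 on NOD T0 arrays. It read 7.75 and 7.58 on B10 T1 arrays, against 6.48, 6.80 and 6.51 on B10 T0 arrays. All T1 arrays were above all T0 arrays, with a narrow spread within groups. Prdm1 was higher by 0.83 ± 0.12 on the log2 scale in NOD T1 than in NOD T0 cells (1.77-fold, limma adjusted p = 0.000117), and by 1.07 ± 0.12 in B10 T1 than in B10 T0 cells (2.10-fold, limma adjusted p = 1.29e-05). It ranked 903 from the highest change in NOD cells and 746 in B10 cells, so many genes changed more. Plasma cells also express Prdm1, and their markers were lower at T1 for 2 of 6 in NOD cells and 1 of 6 in B10 cells, and none was higher. Their summed level spanned 10.8 to 11.11 in NOD T1 and 11.51 to 11.74 in NOD T0 arrays, and 10.74 to 11.17 in B10 T1 and 10.84 to 11.3 in B10 T0 arrays.

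The 3 receptor chains were lower in stimulated cells of both strains. Il10ra read 6.65 and 6.38 on NOD T1 arrays, against 8.01, 7.86 and 7.88 on NOD T0 arrays. It read 6.86 and 6.21 on B10 T1 arrays, against 7.69, 7.98 and 7.85 on B10 T0 arrays. No T1 array reached a T0 array. Il10ra fell by 1.40 ± 0.17 on the log2 scale in NOD cells (2.63-fold lower, limma adjusted p = 2.39e-05) and by 1.31 ± 0.17 in B10 cells (2.47-fold lower, limma adjusted p = 4.06e-05).

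Il27ra, the chain that pairs with gp130 (Il6st) to bind interleukin 27, was lower at T1 by a similar amount. Il27ra read 7.81 and 7.40 on NOD T1 arrays, against 8.84, 8.99 and 8.78 on NOD T0 arrays. It read 7.78 and 7.99 on B10 T1 arrays, against 9.12, 9.19 and 9.27 on B10 T0 arrays. The T1 arrays all lay below the T0 arrays by more than the spread of either group. The fall was 1.26 ± 0.13 in NOD cells (2.40-fold, limma adjusted p = 5.99e-06) and 1.31 ± 0.13 in B10 cells (2.48-fold, limma adjusted p = 4.34e-06).

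Il10rb, the shared chain, was lower at T1 by a smaller step. Il10rb read 8.00 and 7.98 on NOD T1 arrays, against 8.65, 8.40 and 8.63 on NOD T0 arrays. It read 7.87 and 7.80 on B10 T1 arrays, against 8.31, 8.56 and 8.42 on B10 T0 arrays. The T1 arrays of either strain again lay below all of its T0 arrays. Il10rb fell by 0.57 ± 0.11 in NOD cells (1.48-fold, limma adjusted p = 0.00122) and by 0.59 ± 0.11 in B10 cells (1.51-fold, limma adjusted p = 0.000906).

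Myeloid and B cells also carry these receptor chains, and their markers moved in the same direction. Of 9 monocyte and macrophage markers, 9 were lower at T1 in NOD cells and 8 in B10 cells. Their summed log2 level spanned 10.35 to 10.64 in NOD T1 and 12.19 to 12.43 in NOD T0 arrays, and 10.13 to 10.24 in B10 T1 and 11.39 to 11.71 in B10 T0 arrays. Of 8 B cell markers, 7 were lower in NOD T1 cells, and 5 were lower and 1 higher in B10 T1 cells. Their summed level spanned 10.18 to 10.2 in NOD T1 and 11.66 to 11.98 in NOD T0 arrays, and 10.51 to 10.56 in B10 T1 and 11.43 to 11.71 in B10 T0 arrays. Of 7 CD4 T cell markers, 4 were lower and 1 higher in NOD T1 cells, and 4 were lower in B10 T1 cells. The part of these cells in the receptor values was not tested.

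Tgfb1 and Il24 did not pass the test in either strain. Tgfb1 read 10.47 and 10.29 on NOD T1 arrays, against 10.31, 10.40 and 10.20 on NOD T0 arrays. It read 10.37 and 10.43 on B10 T1 arrays, against 10.16, 10.35 and 10.31 on B10 T0 arrays. The NOD groups overlapped, and the B10 T1 arrays were just above the B10 T0 arrays. The log2 difference was 0.08 with a 95% interval of -0.15 to 0.31 in NOD cells (limma adjusted p = 0.592) and 0.12 with an interval of -0.11 to 0.35 in B10 cells (limma adjusted p = 0.467).

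Il24 encodes a cytokine that acts through receptors other than the one for interleukin 10. It lay below its own array's 25th percentile on all 10 arrays, so its values are near the dim end of the range. Il24 read 4.79 and 4.80 on NOD T1 arrays, against 4.73, 4.91 and 4.70 on NOD T0 arrays. It read 4.67 and 4.85 on B10 T1 arrays, against 4.51, 4.61 and 4.51 on B10 T0 arrays. The NOD T1 arrays fell within the NOD T0 range, and the B10 T1 arrays were above the B10 T0 arrays. The log2 difference was 0.02 (95% interval -0.20 to 0.24, limma adjusted p = 0.905) in NOD cells and 0.22 (-0.01 to 0.44, limma adjusted p = 0.143) in B10 cells. Counting all 7 genes, T1 and T0 arrays did not overlap for 5 in NOD cells and for 7 in B10 cells, where 56% and 52.4% of all genes showed no overlap.

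**Figure D2:**
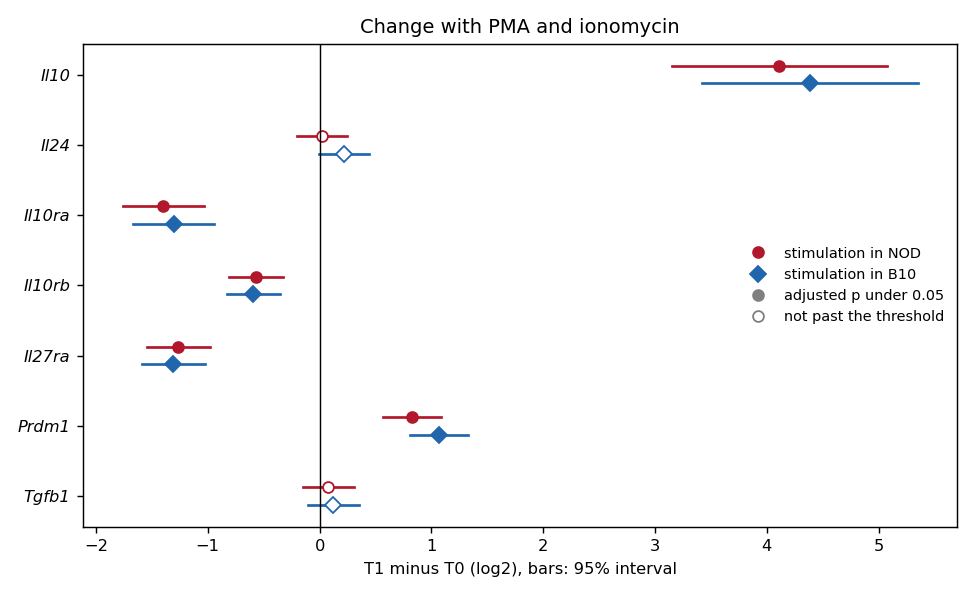
Change with stimulation (T1 minus T0, log2, x axis) of the 7 genes (y axis) in NOD and B10 cells, with points for the estimates (filled where the adjusted p was below 0.05) and bars for 95% intervals. Il10 lies at 4.11 and 4.39, Prdm1 at 0.83 and 1.07, the 3 receptor chains between -1.40 and -0.57, and the intervals of Tgfb1 and Il24 include 0.

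No gene of the set passed the test for a difference between NOD and B10 cells, either at T1, where 3.6% of all genes passed (1.77% higher and 1.83% lower in NOD cells), or at T0, where 5.79% did (3.44% higher and 2.35% lower). By unadjusted limma p below 0.05 there were 0 of 7 at T1 and 2 of 7 at T0. The 95% interval of the Il10 difference at T1 was -1.08 to 1.03, so differences of about 1 in either direction lie within it. The adjusted test asks for more than a 95% interval without 0, so larger differences could also be missed. The difference itself was -0.03 (NOD minus B10, log2). This value turned with the B10 array used: it was 0.74 without replicate 2 of B10 T1 and -0.79 without replicate 3, and neither passed the test. At T0 the Il10 difference was 0.25 (-0.61 to 1.11, limma adjusted p = 0.873), and 0.71 without replicate 2 of B10 T0.

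Il27ra and Il24 were the genes whose NOD and B10 arrays did not overlap at T0. Il27ra averaged 8.87 ± 0.11 in NOD T0 cells and 9.19 ± 0.08 in B10 T0 cells (SD, n = 3 each). The difference was -0.32 (95% interval -0.57 to -0.07), with an unadjusted p of 0.0164 and a limma adjusted p of 0.162. Il24 averaged 4.78 ± 0.12 in NOD T0 and 4.54 ± 0.06 in B10 T0 cells (SD, n = 3 each), a difference of 0.24 (0.04 to 0.44) with a limma adjusted p of 0.212. Over all genes 22.8% showed no overlap between strains at T0 and 41.8% at T1, where Il10rb was the 1 gene of 7 without overlap (0.15, interval -0.11 to 0.42, limma adjusted p = 0.597).

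In the same comparison at T0, 5 of 9 monocyte and macrophage, 4 of 9 neutrophil, 4 of 4 erythroid, 2 of 6 plasma cell and 1 of 8 B cell markers were higher in NOD cells. Lower in NOD cells were 3 of 7 NK cell and 1 of 3 CD8 T cell markers, and the part of all these cells in these values was not tested. Of the remaining genes at T0, Il10ra differed by 0.07 (-0.25 to 0.40), Il10rb by 0.13 (-0.08 to 0.35), Prdm1 by 0.09 (-0.15 to 0.32) and Tgfb1 by 0.03 (-0.18 to 0.23). At T1 the differences were -0.28 for Il27ra (-0.58 to 0.03), -0.15 for Prdm1 (-0.44 to 0.13), -0.02 for Il10ra (-0.42 to 0.38), -0.02 for Tgfb1 (-0.27 to 0.24) and 0.04 for Il24 (-0.21 to 0.28). These intervals show how precisely 2 or 3 arrays in a group measured the differences. For the 5 genes that changed with stimulation, both T1 means lay on one side of both T0 means. Il10 ran from B10 T1 (10.47) and NOD T1 (10.45) to NOD T0 (6.33) and B10 T0 (6.09), and Il27ra ran from B10 T0 (9.19) and NOD T0 (8.87) to B10 T1 (7.88) and NOD T1 (7.61). Neighbours of the same state in these orders did not differ by the test.

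The response to stimulation was also compared between the strains directly, by the difference of the 2 changes. None of the 7 genes passed this limma test, none had an unadjusted p below 0.05, and 0.246% of all genes passed it. The Il10 response differed by -0.27 (NOD minus B10, log2, 95% interval -1.64 to 1.09, limma adjusted p = 0.926). The Prdm1 response differed by -0.24 (-0.61 to 0.13, limma adjusted p = 0.695).

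**Figure D3:**
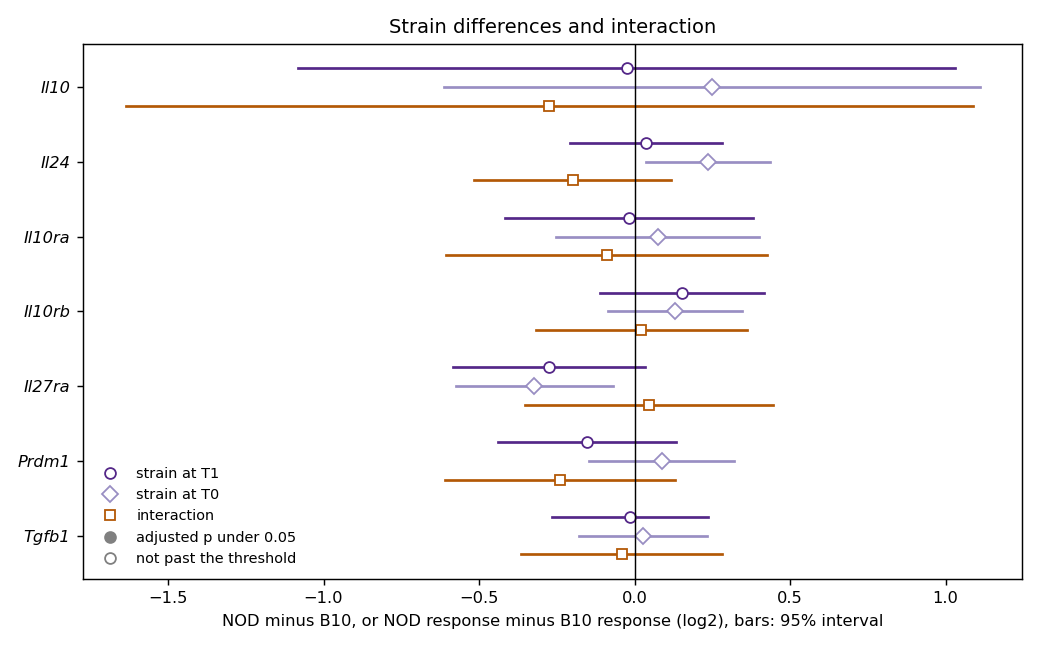
Difference between strains (NOD minus B10, log2, x axis) of the 7 genes (y axis) at T1 and at T0, and the interaction, NOD response minus B10 response. Points are the estimates (filled where the adjusted p was below 0.05) and bars the 95% intervals. All estimates lie between -0.32 and 0.25. The Il10 intervals are the widest, reaching from -1.08 to 1.03 at T1 and from -1.64 to 1.09 for the interaction.

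Over the 10 arrays the 5 changed genes moved together or in opposition, which their shared T1 to T0 step brings about in any pair of changed genes. Pearson r was 0.979 between Il10 and Prdm1, 0.942 between Il10ra and Il10rb, -0.956 between Il10 and Il27ra and -0.892 between Il10 and Il10ra. The genes most like Il10 by Pearson r over the 10 arrays were Atp2a2 (0.991), Ivns1abp (0.99), Ppa1 (0.989), Mdfic (0.988) and Plrg1 (0.987). Their changes were smaller than that of Il10, at most 1.89 for Ppa1 in NOD cells and 2.04 for Mdfic in B10 cells on the log2 scale. Atp2a2 encodes the calcium pump of the endoplasmic reticulum, and Ppa1 a soluble pyrophosphatase. The genes most like Prdm1 were Sec14l1 (0.993) and Ivns1abp (0.991). Those most like Il10ra were Cyth4 (0.996) and Timp2 (0.995), those most like Il27ra were Scai (0.995) and Vgll4 (0.995), and those most like Il10rb were Anapc1 (0.995) and Rab18 (0.99). For Il24 the closest were Scgn (0.914) and Myl1 (0.897), and for Tgfb1 they were Prpmp5 (0.905) and Ifnab (0.903).

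Among transcription factors known to act on Il10 in T cells, 12 of 22 rose and 4 fell with stimulation in NOD cells, and 11 rose and 4 fell in B10 cells, beside the 16.1% higher and 19.5% lower of all genes in NOD cells and the 13.7% and 18.1% in B10 cells. Their median log2 change was 0.58 in NOD cells and 0.35 in B10 cells, beside 0.08 and 0.03 over all genes. Batf and Irf4, partners that bind DNA together with Jun proteins, were among those that rose. Batf read 10.53 and 10.65 on NOD T1 arrays, against 7.64, 7.82 and 7.77 on NOD T0 arrays, and 10.50 and 10.33 on B10 T1 arrays, against 7.65, 8.42 and 7.77 on B10 T0 arrays. Its T1 and T0 arrays were far apart in either strain, by 2.84 ± 0.18 in NOD cells (limma adjusted p = 1.08e-07) and 2.47 ± 0.18 in B10 cells (limma adjusted p = 3.47e-07). Irf4 rose by 2.57 ± 0.11 in both strains (limma adjusted p = 5.99e-09 in NOD cells and 5.32e-09 in B10 cells).

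Tbx21, which encodes T-bet, the factor of the Th1 lineage, rose by 3.15 ± 0.19 in NOD cells and by 2.47 ± 0.19 in B10 cells. The aryl hydrocarbon receptor gene Ahr rose by 1.86 ± 0.13 and 2.0 ± 0.13 in NOD and B10 cells, and Egr2, an early growth response factor, by 1.97 ± 0.11 and 2.02 ± 0.11. Smaller rises were measured for Gata3, the factor of the Th2 lineage (1.07 in NOD cells and 1.2 in B10 cells), Jun (0.98 and 1.57) and Rbpj, which mediates Notch signals (1.15 and 1.54). Ets1 fell by 2.32 ± 0.10 in NOD cells and by 2.15 ± 0.10 in B10 cells, Creb1 fell by 1.14 and by 0.79, and Nfatc2 fell by 0.64 and by 0.85. Maf, a strong activator of Il10 in several T helper lineages, did not pass the test, at -0.39 ± 0.21 in NOD cells (limma adjusted p = 0.171) and -0.51 ± 0.21 in B10 cells (limma adjusted p = 0.087). Between strains, 1 of the 22 was lower in NOD cells at T1 (Rbpj) and 3 were lower at T0 (Nfatc2, Rora and Tbx21). Only the Rora difference of -0.59 at T0 (limma adjusted p = 0.00453) kept its call in all 20 alternative settings.

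**Figure D4:**
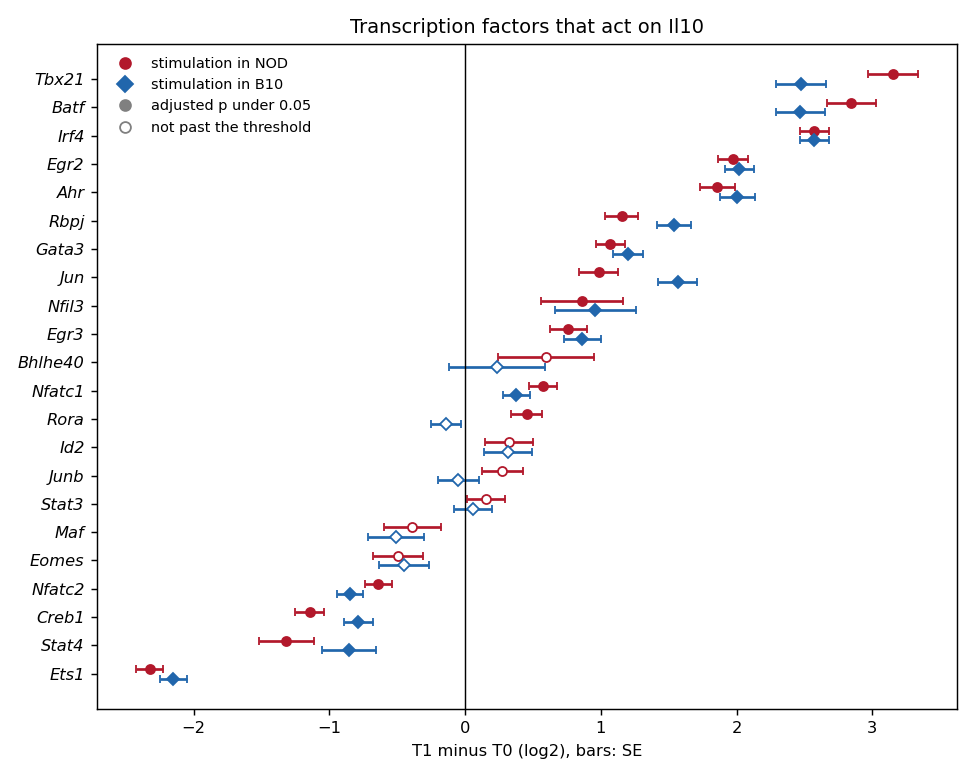
Change with stimulation (T1 minus T0, log2, x axis) of 22 transcription factors that act on Il10 (y axis) in NOD and B10 cells, with points for the estimates (filled where the adjusted p was below 0.05) and bars for the SE. Tbx21, Batf and Irf4 lie farthest to the right, at 2.47 to 3.15, and Ets1 farthest to the left, at -2.32 and -2.15.

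Of 11 ligands and receptors of the IL-10 family, Il10 included, 1 rose (Il10) and 2 fell (Il10ra and Il10rb) in either strain (Il22 was not among the genes measured). These shares are near those of all genes, of which 16.1% rose and 19.5% fell in NOD cells and 13.7% rose and 18.1% fell in B10 cells. In NOD cells the count was 2 higher and 2 lower under the 75th percentile scaling, and 3 higher and 2 lower without replicate 2 of NOD T1. Of 11 genes of IL-10 signalling and response, 5 rose and 5 fell in NOD cells and 3 rose and 4 fell in B10 cells, and the NOD count was 2 and 4 without replicate 3 of NOD T1. Over all genes 35.5% passed in NOD cells and 31.8% in B10 cells. Tyk2, a kinase through which the receptor signals, fell by 0.58 ± 0.11 in NOD cells and by 0.76 ± 0.11 in B10 cells. Socs1, a feedback inhibitor of cytokine receptors, rose by 1.5 ± 0.12 and 0.96 ± 0.12, and Zfp36, an RNA-decay factor that interleukin 10 induces, rose by 0.61 ± 0.13 and 0.58 ± 0.13. Bcl3, a nuclear regulator of NF-kappaB, fell by 0.85 ± 0.17 in NOD cells and by 0.89 ± 0.17 in B10 cells. Stat3, the main signal carrier of the receptor, stood at 0.15 ± 0.14 in NOD cells and 0.06 ± 0.14 in B10 cells (limma adjusted p = 0.417 and 0.821).

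Around Il27ra, 4 of 11 chains of the IL-27 and IL-12 family rose and 3 fell in NOD cells, and 2 rose and 4 fell in B10 cells. The NOD count was 2 and 2 without replicate 2 of NOD T1, and 35.5% of all genes passed in NOD cells and 31.8% in B10 cells. Il23r, the receptor chain for interleukin 23, rose by 0.99 ± 0.16 in NOD cells and 1.29 ± 0.16 in B10 cells, and Il6ra fell by 0.66 ± 0.12 and by 0.98 ± 0.12. Il27, the ligand's own chain, stood at 0.22 ± 0.13 in NOD and 0.18 ± 0.13 in B10 cells and did not pass the test. Il12b, the shared chain of interleukins 12 and 23, rose in both strains and was the 1 gene of the list lower in NOD cells. Il12b read 6.32 and 6.23 on NOD T1 arrays and 5.20, 5.56 and 5.71 on NOD T0 arrays, and 7.67 and 7.33 on B10 T1 arrays and 6.64, 6.60 and 6.2 on B10 T0 arrays. The NOD arrays were below the B10 arrays at either state, by -0.99 ± 0.15 at T0 (limma adjusted p = 0.0025) and -1.22 ± 0.19 at T1 (limma adjusted p = 0.00444). The T1 call was lost without replicate 2 of B10 T1 (difference -1.05).

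Around Tgfb1, 4 of 25 genes for TGF-beta ligands, activation, receptors and SMADs rose and 8 fell in NOD cells, and 3 rose and 8 fell in B10 cells, where over all genes 16.1% rose and 19.5% fell in NOD cells and 13.7% rose and 18.1% fell in B10 cells. Under the 75th percentile scaling 5 rose and 6 fell in NOD cells and 4 rose and 8 fell in B10 cells. With both B10 arrays of replicate 2 left out, 3 rose and 4 fell in B10 cells. The median change of the list was 0.01 in NOD cells and -0.14 in B10 cells. The type II receptor gene Tgfbr2, which binds the ligand, fell by 1.56 ± 0.13 in NOD cells (limma adjusted p = 1.09e-06) and by 1.61 ± 0.13 in B10 cells (limma adjusted p = 8.31e-07). Smad4, the shared SMAD partner, fell by 0.87 ± 0.12 in NOD cells and by 0.83 ± 0.12 in B10 cells. Of the genes that act on the latent cytokine, some rose and others fell or did not pass the test. The protease gene Furin rose by 1.75 ± 0.11 in NOD cells and 1.86 ± 0.11 in B10 cells, the integrin chain Itgav by 2.01 ± 0.23 and 1.35 ± 0.23, and its partner Itgb8 by 1.99 ± 0.36 and 2.0 ± 0.36. Nrros, an anchor of latent TGF-beta in myeloid cells, fell by 0.42 ± 0.13 in NOD cells (limma adjusted p = 0.0238, a call lost without replicate 3 of NOD T1 or of NOD T0 and under the 75th percentile scaling) and by 0.64 ± 0.13 in B10 cells (limma adjusted p = 0.00157). Thbs1 (-0.27 in NOD cells and -0.22 in B10 cells), Itgb6 (0.13 and 0.09) and Ltbp4 (0.03 and 0.07) did not pass the test. Lrrc32, which encodes GARP, the surface anchor of latent TGF-beta on regulatory T cells, fell by 0.64 ± 0.14 with stimulation in B10 cells (limma adjusted p = 0.00284) and stood at -0.18 ± 0.14 in NOD cells, where it did not pass. It was lower in NOD T0 than in B10 T0 cells by -0.80 ± 0.12 (limma adjusted p = 0.0028). It read 7.27, 7.21 and 7.18 on NOD T0 arrays and 8.08, 8.23 and 7.74 on B10 T0 arrays, without overlap.

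Among 10 genes, Prdm1 itself and 9 for factors known to act beside or against Blimp-1, Prdm1 and Irf4 rose in both strains. Of the 10, 6 fell in NOD cells and 5 in B10 cells. Over all genes, 16.1% rose and 19.5% fell in NOD cells, and 13.7% rose and 18.1% fell in B10 cells. Under the alternative scaling used for the TGF-beta list, 4 of these 10 fell in NOD cells and 5 in B10 cells. Bcl6, which opposes Blimp-1, fell by 0.74 ± 0.14 in either strain. Myb fell by 0.74 ± 0.12 in NOD cells and by 1.55 ± 0.12 in B10 cells, and was lower in NOD T0 than in B10 T0 cells by -0.96 ± 0.11 (limma adjusted p = 0.000263). Xbp1, which acts beside Blimp-1 in plasma cells, fell by 0.81 ± 0.11 in NOD cells and by 0.55 ± 0.11 in B10 cells. Pax5, a B cell factor that Blimp-1 represses, fell by 0.76 ± 0.12 and by 0.88 ± 0.12, beside the fall of B cell markers given above.

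Of 13 genes of type 1 regulatory cells and inhibitory receptors, 4 rose and 4 fell in NOD cells. In B10 cells, 4 rose and 3 fell. Under the alternative scaling used for the TGF-beta list, 6 rose and 3 fell in NOD cells, and the B10 count stayed at 4 and 3. Without replicate 2 of B10 T0 the B10 count was 8 and 3, and 35.5% of all genes passed in NOD cells and 31.8% in B10 cells. Gzmb, a cytotoxic granule protease found in such cells, rose by 3.16 ± 0.19 in NOD cells and 3.65 ± 0.19 in B10 cells, and the interleukin 2 receptor chain Il2ra by 3.29 ± 0.16 and 3.14 ± 0.16. Entpd1, an ectoenzyme that degrades ATP and is also known as CD39, fell by 1.79 ± 0.14 in NOD cells and by 1.08 ± 0.14 in B10 cells. Lag3, a surface marker of type 1 regulatory cells, stood at 0.73 ± 0.28 in NOD cells and 0.59 ± 0.28 in B10 cells and did not pass the test (limma adjusted p = 0.0633 and 0.15). Between strains at T0, 1 of the 13 was higher in NOD cells and 2 were lower. Havcr2, which encodes the inhibitory receptor TIM-3, was higher by 0.55 ± 0.13 (limma adjusted p = 0.0231, a call lost without replicate 1 or 3 of NOD T0 or any 1 of the B10 T0 arrays). Nt5e, which encodes CD73, was lower by -1.88 ± 0.24 (limma adjusted p = 0.000696), and the activating receptor gene Cd226 by -0.87 ± 0.14 (limma adjusted p = 0.0028). At T1 the 2 lower in NOD cells were Nt5e (-1.19 ± 0.29, limma adjusted p = 0.0454) and Icos (-0.93 ± 0.15, limma adjusted p = 0.00587), and both calls were lost without replicate 2 of B10 T1. The Nt5e call at T1 was also lost without any 1 of the NOD arrays and without replicate 1 of B10 T0.

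No gene listed beside Il10 on chromosome 1 changed as much as Il10. In RefSeq order Fcmr, Il24, Il20 and Il19 lie on one side of Il10, and Mapkapk2, Dyrk3 and Eif2d on the other. The nearest family members Il19 (0.16 in NOD cells and 0.21 in B10 cells) and Il20 (0.23 and -0.04) did not pass the test. Mapkapk2, a kinase that stabilises cytokine messages, rose by 1.04 ± 0.11 in NOD cells (limma adjusted p = 5.28e-06) and 1.21 ± 0.11 in B10 cells (limma adjusted p = 1.36e-06). Fcmr, the receptor for immunoglobulin M, fell by 1.46 ± 0.15 in NOD cells and by 1.86 ± 0.15 in B10 cells. Of the 9 neighbours listed, 2 rose and 1 fell in NOD cells and 2 rose and 2 fell in B10 cells, where the count was 1 and 1 without replicate 3 of B10 T1. These counts are near the 35.5% of all genes called in NOD cells and the 31.8% called in B10 cells. Dyrk3, a kinase gene known from red cell precursors, was higher in NOD than in B10 cells at T1 (1.26 ± 0.22, limma adjusted p = 0.0092, a call lost without replicate 2 of B10 T1) and at T0 (1.30 ± 0.18, limma adjusted p = 0.00121). All 4 erythroid markers measured were also higher in NOD than in B10 cells at T0, calls that were lost without replicate 1 of B10 T0, with summed levels of 12.4 to 12.95 in NOD T0 and 9.284 to 11.55 in B10 T0 arrays, and their part in the Dyrk3 difference was not tested.

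**Figure D5:**
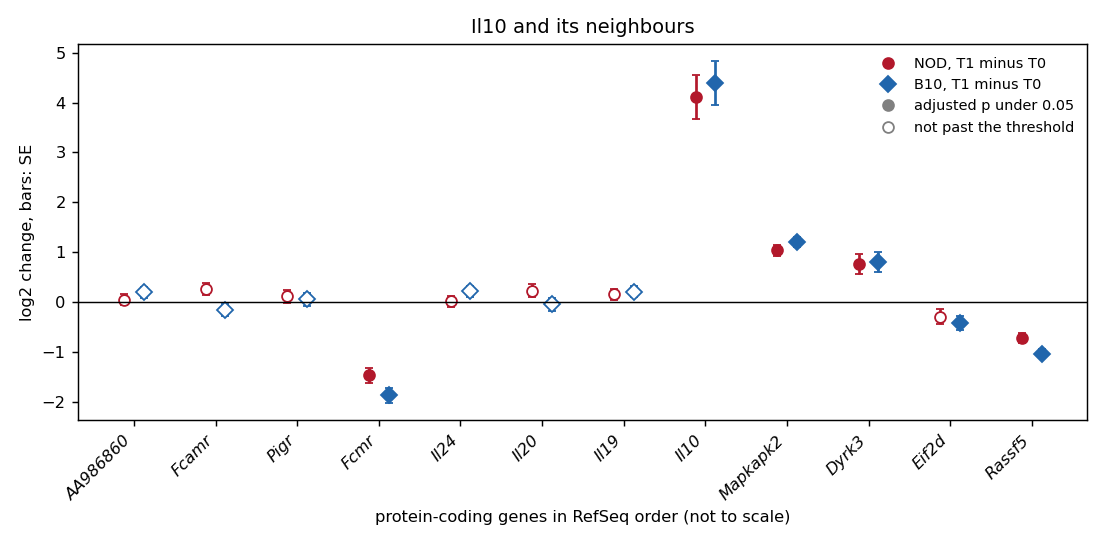
Change with stimulation (T1 minus T0, log2, y axis) of Il10 and the genes beside it, placed along the x axis in RefSeq order and not to scale, in NOD and B10 cells, with points filled where the adjusted p was below 0.05 and bars for the SE. Il10 stands at 4.11 and 4.39, while Mapkapk2 stands at 1.04 and 1.21 and Il19 at 0.16 and 0.21.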

How the data were processed

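RNA of 10 samples was measured on 10 arrays. The authors deposited log2 intensities. Affymetrix Power Tools and RMA made them, per the submitters' processing notes, with versions and options not given in the sources used here. Log base 2 follows from the range of the values, since no source states it. Of 35486 probe sets, 21789 had 1 symbol, 1621 had several and 12076 had none listed. They gave 19938 genes, and for 999 genes the brightest of several probe sets was kept. A model of 4 group means over all 10 arrays was fitted with limma 3.58.1 in R 4.3.3 and checked on simulated data (6 residual degrees of freedom, threshold 0.05). Differences are given with SE and 95% intervals. Genes were named from fixed lists, plus the 5 most like Il10 and the 2 most like each other gene. Members and lists were chosen with earlier results of these data known. Same-numbered T1 and T0 arrays deviated together in B10 cells (r = 0.413 and 0.404) but not throughout in NOD cells (-0.014 and 0.219). Both values of a strain rest on the same 2 T1 arrays, whose deviations from their mean are exact opposites, so they are not separate checks. They cannot decide whether arrays were paired, and the numbers were not taken as pairs. Alternatives tried were another scaling, probe set rules, a brightness filter, another variance model, fewer arrays and replicate blocks. Figures were drawn with matplotlib 3.10.9.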

Additional observations from a re-analysis of the deposited data

How the results depend on the processing

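The number of the 7 genes called stayed at 5 for stimulation in NOD cells, 5 in B10 cells and 0 for the strain comparisons and the interaction, under every alternative that gave a value and with each array left out in turn (5 to 5, 5 to 5 and 0 to 0). None of the 7 turned direction as a called gene. The brightness filter drops Il24, so it gives no count of the 7, and a fit on only the arrays compared gives no interaction. Counts over all genes moved more. For strain at T1, where 718 genes passed, a fit on only the arrays compared gave 128 and leaving out both B10 arrays of replicate 2 gave 147. For the interaction, where 49 genes passed, the 75th percentile scaling gave 31, the variance trend with robust fitting 102 and leaving out both B10 arrays of replicate 2 gave 11. With each array left out in turn, stimulation gave 5915 to 7071 genes in NOD cells and 5376 to 6596 in B10 cells, strain 184 to 889 at T1 and 571 to 1306 at T0, and the interaction 13 to 69. The 75th percentile scaling changed the split to 397 higher and 269 lower at T1, against 353 and 365, and to 16 and 15 for the interaction, against 19 and 30.

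With the replicate number as a fixed block, 6313 genes passed for stimulation in NOD cells and 5893 in B10 cells, and 5 of the 7 genes in either. Il10 then changed by 3.95 in NOD cells and 4.23 in B10 cells. No call on the 7 genes was changed by this block or by a random one. The fixed block gives both strains the same effect of a replicate number. It cannot take up offsets that run opposite ways in the strains, as those of Il10 did. The random block was set within each strain. Leaving out both B10 arrays of replicate 2, or of replicate 3, was chosen after seeing the data. With 2 arrays in a T1 group, only differences well above the replicate spread could be called, and any change in dim genes such as Il24 would be understated.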

Other observations

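Within a replicate number, the T1 and T0 levels of Il10 stood a nearly constant distance apart. T1 minus T0 was 4.03 for replicate 2 and 4.04 for replicate 3 in NOD cells, and 4.23 and 4.06 in B10 cells, although Il10 at T1 differed by 1.54 between the B10 arrays. For Prdm1 the same differences were 0.96 and 0.68 in NOD cells and 0.95 and 1.07 in B10 cells. For Il10ra they were -1.21 and -1.49 in NOD cells and -1.12 and -1.65 in B10 cells. Whether arrays of one number came from the same animal is not stated in the labels.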
